A study of Rattus norvegicus with 8 samples.

Results

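The 10 genes described here, Fos, Fosb, Junb, Egr1, Egr2, Egr3, Egr4, Npas4, Nr4a1 and Nr4a2, encode transcription factors of the immediate early class, and they were picked by symbol from the 28909 gene symbols of the count table. All 10 had more than 20 reads in at least 2 libraries, the filter that left 14309 symbols for testing. Egr2 had more than 20 reads only in the somata libraries. Their RNA was read in primary hippocampal neurons of embryonic Sprague-Dawley rats, grown on filter inserts whose small pores let dendrites and axons, but not cell bodies, reach the lower side. Somata (upper side) and processes (lower side) were lysed separately, either from control cultures that received only the vehicle or from cultures treated with picrotoxin (PTX), a GABA-A receptor antagonist, for 48 h from day in vitro 18 to 20. Each of the 4 conditions had 2 libraries, numbered 1 and 2, from ribosome-depleted RNA. The upper compartment also holds the processes that did not cross the filter, and the labels name no genetic alteration in any group. The labels do not say whether the libraries of a condition came from separate cultures, so p-values measure the spread between these libraries, which may be technical. In bulk RNA such as this, fewer cells of a type cannot be told apart from less RNA per cell.

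Immediate early genes are transcribed within minutes of synaptic activity from promoters already occupied by factors such as CREB and SRF, and they need no new protein for it. Fos and Fosb proteins pair with Jun proteins such as Junb to form AP-1. The Egr proteins are zinc-finger factors, Npas4 is a basic helix-loop-helix PAS factor induced by calcium entry in neurons, and Nr4a1 and Nr4a2 are orphan nuclear receptors. Together these factors drive the later wave of activity-dependent genes, among them secreted growth factors and synaptic regulators, and the comparisons below ask how much of their RNA was present after prolonged PTX and in which compartment.

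Library totals ran from 12290890 to 18455662 counts. Mitochondrial genes took 22.6% to 26.7% of the counts of the somata libraries and 68.5% to 72.5% of those of the processes libraries. One CPM (the count per unit of library size, with TMM scaling, edgeR's correction for differences in RNA composition) was therefore worth 23.5 to 27.8 reads in somata but only 8.52 to 9.95 reads in processes, and the rarer members rest on few reads there. Microglia markers (6 in the table) summed to 1.03 to 2.41 CPM in all libraries. Of these, Cx3cr1 and Trem2 were under the floor of 3 reads in each, while Csf1r and Cd68 had 13 to 27 reads in the somata libraries. The 5 endothelial and mural markers summed to 6.93 to 14.3 CPM, with Cldn5 under that floor. Most of that sum was Pdgfrb, with a mean of 13.2 CPM in control somata and 7.01 CPM in control processes. The 4 fibroblast markers summed to 15.2 to 49 CPM in somata and 15.3 to 36.7 CPM in processes. Neuronal markers (8 genes) summed to 1950 to 2420 CPM in somata and 4200 to 5870 CPM in processes. Most of the sum in processes was Map2, with a mean of 936 CPM in control somata and 4609 CPM in control processes. Of the 8 markers, 2 lay higher and 3 lower in control processes than in control somata. Astrocyte markers (8 genes) were abundant in every library and summed to 3170 to 4480 CPM in somata and 11400 to 14900 CPM in processes. Most of that sum in processes was Gfap, with a mean of 1685 CPM in control somata and 10250 CPM in control processes. Of the 8, 4 lay higher and 2, Slc1a3 and Gja1, lower in control processes than in control somata. Markers of the oligodendrocyte lineage (8 genes) were present in every library too, with sums of 271 to 454 CPM in somata and 471 to 648 CPM in processes. All 5 dendritic mRNAs on the list (Camk2a, Shank1, Shank3, Ddn and Map2) lay higher in control processes than in control somata. Snhg11, the 1 nuclear-retained RNA of the list that was in the table, stood at 46.9% of its soma level in control processes (log2 -1.09, adjusted p = 0.00148) and at 32.3% in PTX processes.

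Of the members, 8 had an entry in the RefSeq promoter table of assembly GRCr8, a later build than the Rnor_6.0 of the counts. The entries for Fos and Egr3 are missing. The 250 bases before the gene start were searched on both strands for motifs of factors known to act on immediate early genes. The CRE half-site, TGACG, was present in 6 of these 8 promoters (Junb, Egr1, Egr2, Egr4, Nr4a1 and Nr4a2) and in 18.2% of all 33469 promoters of that length. The CArG box, which SRF binds, was present in 2 of 8 (Egr1 and Egr2) and in 1.5% of all. The full CRE, TGACGTCA, which contains the half-site, was in 0 of 8 and in 1.59% of all promoters, and the AP-1 sites TGACTCA and TGAGTCA were in 0 of 8 and in 4.05% of all. An EGR site, GCGTGGGCG or GCGGGGGCG, was found only in Nr4a1 among the 8 and in 2.85% of all promoters, and the NR4A response element, AAAGGTCA, in 0 of 8 and in 1.24% of all. A match says only that these letters lie in the window.

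The promoters of 4 genes are printed 5′ to 3′ on the strand of the gene. Of these, 2 rose with PTX in both compartments (Npas4 and Nr4a1) and 2 passed the main test in neither (Egr2 and Egr4). By other tests given below, Egr4 passed in both compartments and Egr2 in processes, so the latter 2 are not genes without a response. Capitals mark CRE half-sites, which read CGTCA on the opposite strand, and the CArG box. The windows are chr1:211716103-211716352 (minus strand) for Npas4, chr7:134259888-134260137 (plus strand) for Nr4a1, chr20:21054442-21054691 (minus strand) for Egr2 and chr4:119607818-119608067 (minus strand) for Egr4, all in GRCr8.
Npas4: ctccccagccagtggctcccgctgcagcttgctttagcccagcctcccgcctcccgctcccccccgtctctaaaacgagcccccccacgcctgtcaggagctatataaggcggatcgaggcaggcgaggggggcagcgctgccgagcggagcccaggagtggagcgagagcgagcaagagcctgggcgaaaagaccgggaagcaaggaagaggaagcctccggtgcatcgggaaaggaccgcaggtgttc
Nr4a1: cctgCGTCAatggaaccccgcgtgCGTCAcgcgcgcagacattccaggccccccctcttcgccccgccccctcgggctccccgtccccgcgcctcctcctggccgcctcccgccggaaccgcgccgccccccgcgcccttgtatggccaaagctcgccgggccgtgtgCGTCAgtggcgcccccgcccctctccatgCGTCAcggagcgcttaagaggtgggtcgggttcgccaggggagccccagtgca
Egr2: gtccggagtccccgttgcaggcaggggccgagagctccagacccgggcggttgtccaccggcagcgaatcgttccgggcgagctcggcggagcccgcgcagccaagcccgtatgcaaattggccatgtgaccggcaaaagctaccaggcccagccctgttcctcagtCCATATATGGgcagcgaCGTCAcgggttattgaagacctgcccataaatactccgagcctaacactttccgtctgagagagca
Egr4: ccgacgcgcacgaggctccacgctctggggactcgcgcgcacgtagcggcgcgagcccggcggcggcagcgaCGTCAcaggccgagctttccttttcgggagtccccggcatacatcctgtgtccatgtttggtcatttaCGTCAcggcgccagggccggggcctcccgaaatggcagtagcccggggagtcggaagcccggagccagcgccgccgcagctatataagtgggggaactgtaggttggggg
The Nr4a1 window holds 4 half-sites and, not in capitals, the EGR site at 73 to 65 bases before the start. In Egr2 the CArG box (83 to 74 bases before the start) and a half-site (66 to 62 bases) lie close together. Egr4 holds 2 half-sites and Npas4 none of the motifs searched.

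In somata, PTX raised 5 of the 10 genes, namely Fos, Fosb, Junb, Npas4 and Nr4a1, by 1.68-fold to 3.36-fold, and lowered none. A gene is said to rise or fall where the adjusted p of edgeR's quasi-likelihood test, with Benjamini-Hochberg adjustment over the 14309 genes, was under 0.05. Among all genes tested 2.09% rose and 1.5% fell. The median log2 fold change of the 10 genes was 0.78, beside -0.0063 for all tested genes. In 8 of the 10 both PTX libraries lay above both control libraries, as they did in 24% of all genes.

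The AP-1 genes moved together in somata. Fos had 20.7 and 17.4 CPM in the control libraries and 55.7 and 45.9 CPM in the PTX libraries. The groups lay far apart and the fitted change was a log2 of 1.42 ± 0.14 (SE), 2.67-fold, with an adjusted p of 0.000588. Fosb, which has stable splice forms that build up under repeated activity, was much rarer, with 50 and 28 reads (2.12 and 1.10 CPM) in control and 177 and 104 reads (6.36 and 4.40 CPM) under PTX. Both PTX libraries again lay above both controls, and Fosb rose by a log2 of 1.75 ± 0.31 (adjusted p = 0.0114). Junb, a Jun-family partner of both, went from 18.4 and 17.2 CPM to 33.1 and 26.9 CPM, a log2 of 0.75 ± 0.14 (adjusted p = 0.0173). Fos passed the test whichever library was left out. Fosb did not pass without control library 2 (1.33, adjusted p = 0.12) or PTX library 1 (1.45, adjusted p = 0.11). Junb did not pass without control library 1 (0.80, adjusted p = 0.0838), control library 2 (0.69, adjusted p = 0.167) or PTX library 1 (0.59, adjusted p = 0.18).

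Npas4, whose protein acts on inhibitory synapse number and Bdnf in excitatory neurons, had the smallest adjusted p of the 10 in somata. Its level was 23.6 and 26.9 CPM in control and 80.5 and 88.0 CPM under PTX. The PTX libraries held 2239 and 2079 reads, against 555 and 687 in control. The change was a log2 of 1.74 ± 0.17, 3.33-fold (adjusted p = 0.00054), and it passed whichever library was left out. The nuclear receptor gene Nr4a1 had 10.03 and 9.99 CPM in control, close to equal, and 18.5 and 25.0 CPM under PTX. It rose by a log2 of 1.12 ± 0.18 (adjusted p = 0.00844). Nr4a1 did not pass without control library 1 (1.11, adjusted p = 0.0608), control library 2 (1.10, adjusted p = 0.0886) or PTX library 2 (0.88, adjusted p = 0.0602). Its relative Nr4a2 had 8.46 and 6.82 CPM in control and 9.64 and 11.3 CPM under PTX. Without overlap between the groups, the difference of 0.46 ± 0.17 did not pass (adjusted p = 0.205). With the replicate number as a block, a fit that compares libraries of the same number, Nr4a2 passed in somata (adjusted p = 0.0399).

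The 4 Egr genes did not pass in somata. Egr1, the member most often used as an activity marker beside Fos, had 18.9 and 19.2 CPM in control and 23.5 and 21.1 CPM under PTX. Its log2 fold change was 0.23 ± 0.12 (adjusted p = 0.424), and the 95% interval of -0.04 to 0.50 leaves out a change of the size seen in Fos. Egr3 had 5.95 and 5.13 CPM in control and 4.46 and 6.39 CPM under PTX, and the groups overlapped. The log2 fold change of Egr3 was -0.035 ± 0.21 (adjusted p = 0.969), with an interval of -0.49 to 0.42. Egr2, known from hindbrain patterning and myelination as well as from neuronal activity, had 43 and 41 reads in control and 77 and 43 reads under PTX, with 1 PTX library inside the control range once scaled (1.83 and 1.61 against 2.77 and 1.82 CPM). The difference for Egr2 was 0.43 ± 0.32 (adjusted p = 0.623). Egr4, by contrast, had 2.85 and 2.70 CPM in control and 4.57 and 5.21 CPM under PTX, a log2 of 0.81 ± 0.25 with an adjusted p of 0.122. Egr4 passed with the replicate block (adjusted p = 0.00932) and with the likelihood ratio test (adjusted p = 0.026). Counting with the block, 7 of the 10 genes rose in somata, where 7.21% of all genes did.

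**Figure D1:**
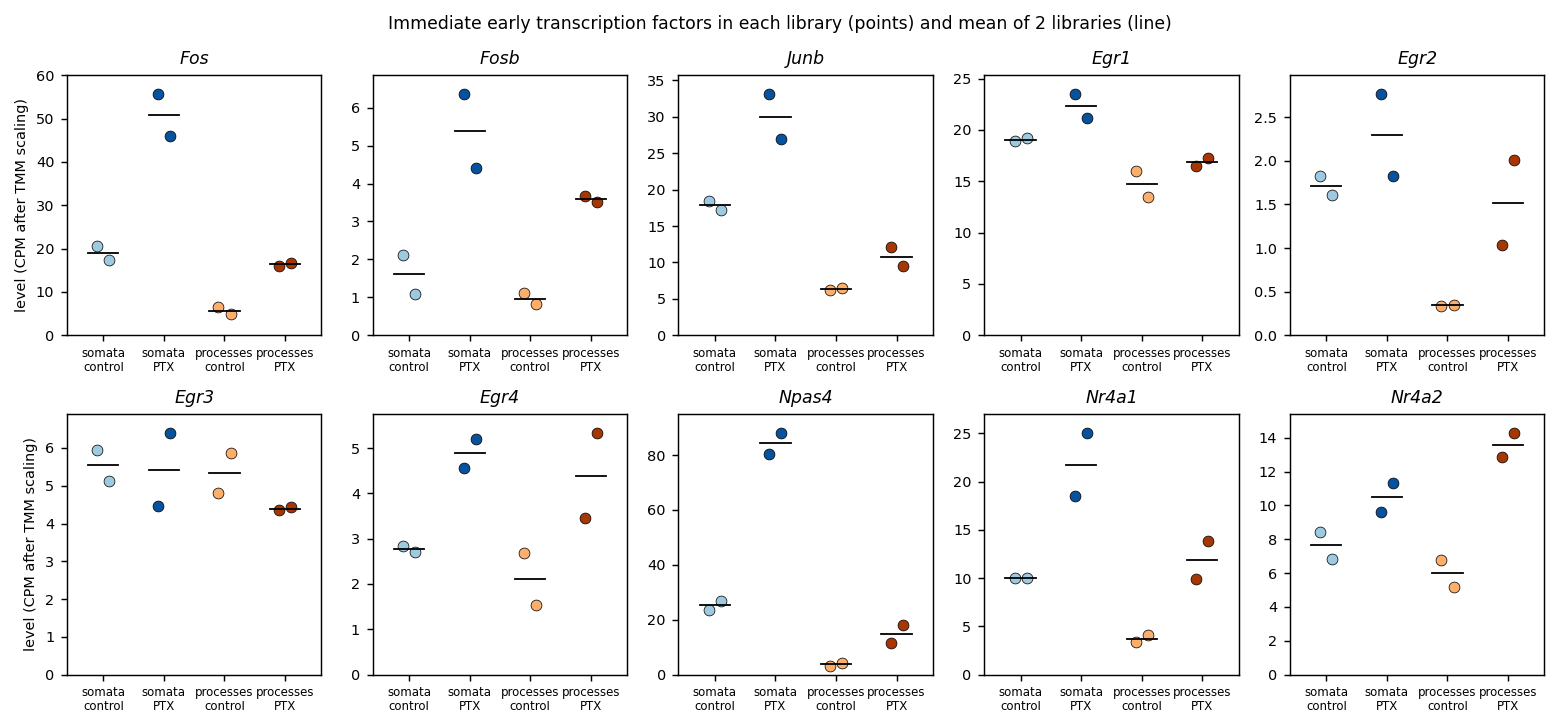
Level of each of the 10 genes in each library (points, CPM after TMM scaling, linear axis from 0, own scale per gene) by condition, with the mean of 2 libraries as a line. Fos, Fosb, Junb, Npas4 and Nr4a1 stand higher under PTX in somata and in processes, Egr1 and Egr3 stay near their control levels, and Nr4a2 is highest in the PTX processes libraries (12.9 and 14.3 CPM).

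Cell type markers also moved with PTX in these libraries. Of 4 excitatory neuron markers, Neurod6 and Camk2a fell in somata (log2 -1.64 and -1.12), Slc17a7 had -0.33 (adjusted p = 0.249) and Slc17a6 had 0.50 (adjusted p = 0.307). The summed level of the 4 went from 416 to 432 CPM in control to 275 to 297 CPM under PTX. Of 3 inhibitory neuron markers, Gad1 and Gad2 rose (0.82 and 0.92) while Slc32a1 had -0.024, and their sum went from 203 to 278 CPM to 367 to 470 CPM. In processes the inhibitory sum went from 124 to 156 CPM to 203 to 266 CPM. Of the 3, Gad2 rose there (0.92, adjusted p = 0.0384), Gad1 had 0.56 (adjusted p = 0.14) and Slc32a1 had 0.16 (adjusted p = 0.779). Neurod6 and Camk2a fell in processes too (-1.34 and -1.45) while Slc17a7 rose (0.74) and Slc17a6 had 1.10 (adjusted p = 0.104). Of the 8 neuronal markers 1, Rbfox3, fell in somata (-0.67, adjusted p = 0.0221), and of the 8 astrocyte markers 1, Gja1 (-0.61, adjusted p = 0.0215). In processes they had -0.53 (adjusted p = 0.0838) and -0.44 (adjusted p = 0.0907). With the replicate block 4 neuronal and 2 astrocyte markers fell in somata, and 5 and 1 fell in processes, where 1 astrocyte marker rose. Of all genes 6.79% fell in somata and 6.09% in processes with the block. None of the 4 fibroblast markers passed the main test in either compartment, though in somata Dcn had 1.29 (adjusted p = 0.109) and Lum 1.28 (adjusted p = 0.15). With the block 2 of the 4 rose in somata, where 7.21% of all genes did. The part of these shifts in the PTX values of the immediate early genes was not tested.

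In processes, PTX raised Fos, Fosb, Npas4, Nr4a1 and Nr4a2, again 5 of 10 and by 2.26-fold to 3.92-fold, and lowered none. Of all genes tested 1.64% rose and 2.1% fell in processes. The median of the 10 genes was a log2 of 1.35, beside -0.011 for all genes. In 9 of the 10 both PTX libraries lay above both control libraries, which held for 20.1% of all genes.

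Among the AP-1 genes, Fos had 6.47 and 4.93 CPM in control processes and 16.0 and 16.8 CPM under PTX. These levels rest on 58 and 42 reads against 139 and 167. Fos rose by a log2 of 1.52 ± 0.19 (adjusted p = 0.00392) and passed whichever library was left out. Fosb had only 10 and 7 reads in control and 32 and 35 under PTX, and its rise of 1.88 ± 0.45 lay near the threshold (adjusted p = 0.0464). Fosb did not pass without any 1 of the 4 processes libraries (adjusted p = 0.2 without control library 1, 0.183 without control library 2, 0.153 without PTX library 1 and 0.144 without PTX library 2, with log2 values of 1.68 to 2.12). Junb had 6.25 and 6.46 CPM in control and 12.2 and 9.45 CPM under PTX, without overlap. Its log2 of 0.76 ± 0.20 was close to that in somata but did not pass (adjusted p = 0.0628). Junb passed with the replicate block (adjusted p = 0.00612), the likelihood ratio test (0.0179) and DESeq2 (0.0465).

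Npas4 was the member with the lowest share of its soma level in processes, and there it went from 29 and 37 reads (3.23 and 4.35 CPM) to 99 and 180 reads (11.4 and 18.1 CPM). The rise was a log2 of 1.97 ± 0.25 (adjusted p = 0.00392), and without control library 1 it was 1.77 (adjusted p = 0.0527). Nr4a1 had 3.35 and 4.11 CPM in control and 9.88 and 13.9 CPM under PTX. It rose by a log2 of 1.68 ± 0.25 (adjusted p = 0.00624), which did not pass without control library 1 (1.54, adjusted p = 0.086) or PTX library 2 (1.41, adjusted p = 0.0506). Nr4a2 had 61 and 44 reads in control and 112 and 142 under PTX, that is 6.80 and 5.17 against 12.9 and 14.3 CPM. Its PTX libraries lay clear of the controls, and Nr4a2 rose by a log2 of 1.18 ± 0.21, 2.26-fold (adjusted p = 0.0126). Nr4a2 did not pass without control library 1 (1.39, adjusted p = 0.0517), control library 2 (0.996, adjusted p = 0.0674) or PTX library 2 (1.10, adjusted p = 0.0799).

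Egr2 had the fewest reads of all members in processes, 3 and 3 in control and 9 and 20 under PTX. None of these libraries held more than 20 reads, so Egr2 passed the read filter through somata only. From 6 against 29 reads, the scaled ratio was 4.53 with a 95% counting interval of 1.85 to 13.3, which covers counting error only. The fitted log2 was 2.15 ± 0.60, which did not pass (adjusted p = 0.0818) but did with the replicate block (0.0259) and the likelihood ratio test (0.0154), while DESeq2 gave no adjusted p. Egr4 had 24 and 13 reads in control and 30 and 53 under PTX, or 2.68 and 1.53 against 3.44 and 5.33 CPM. The difference for Egr4 was 1.06 ± 0.33 (adjusted p = 0.123) and passed with the block (adjusted p = 0.0343) and the likelihood ratio test (0.0351). Egr1 stayed at 16.0 and 13.5 CPM in control and 16.5 and 17.3 CPM under PTX, a log2 of 0.20 ± 0.14 (adjusted p = 0.543). Egr3 was the exception in direction, with 4.80 and 5.87 CPM in control and 4.36 and 4.42 CPM under PTX. Both PTX libraries of Egr3 lay below both controls, but the difference of -0.28 ± 0.26 did not pass (adjusted p = 0.667). With the block or the likelihood ratio test 8 of 10 genes rose in processes, where 5.1% and 2.96% of all genes did, and with DESeq2 6, where 2.17% did.

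**Figure D2:**
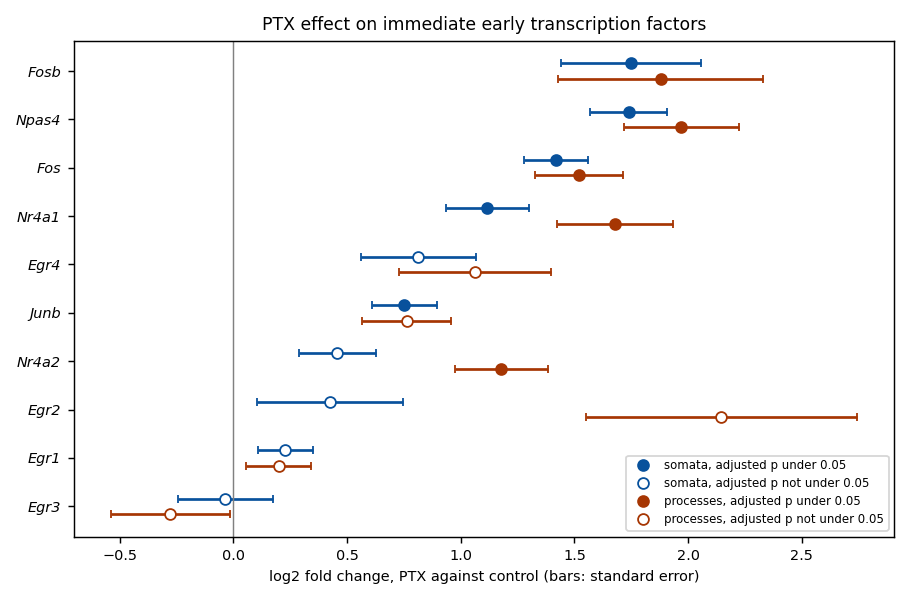
Log2 fold change of PTX against control for each of the 10 genes, in somata (blue) and processes (brown). Bars show the standard error and filled points an adjusted p under 0.05, and the genes are ordered by their change in somata, from 1.75 for Fosb at the top to -0.035 for Egr3 at the bottom.

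Whether the PTX response differed between the compartments was tested with an interaction term, the log2 change in processes minus that in somata. None of the 10 genes passed edgeR's quasi-likelihood test, with adjusted p of 1 for each, and 0% of all genes did. With an unadjusted p under 0.05 there were 2 of the 10, and 4% of all genes. Those 2 were Nr4a2, whose change was larger in processes by 0.72 ± 0.27 (interval 0.13 to 1.31, unadjusted p = 0.0211), and Egr2, larger by 1.72 ± 0.69 (interval 0.19 to 3.25, unadjusted p = 0.0311). The likelihood ratio test, DESeq2 and the replicate block also passed 0 of the 10 for the interaction, and 4, 4 and 15 of all genes. The closest match between compartments was that of Junb, with a difference of 0.0095 and an interval of -0.51 to 0.53. For Fos the difference was 0.10 (-0.43 to 0.63) and for Npas4 0.23 (-0.45 to 0.92), and that of Nr4a1 was 0.56 (-0.14 to 1.26). Nr4a2 passed the PTX test in processes and not in somata, but the difference between the compartments itself did not pass.

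In control cultures, 6 of the 10 genes lay lower in processes than in somata and none higher, where 21.9% of all genes lay lower and 25.8% higher. The 6 were Npas4, Egr2, Fos, Junb, Nr4a1 and Egr1, and all but Egr1 were below a log2 of -1, as were 7.58% of all genes. Egr2 entered the test only through its somata libraries, where it lay higher, so its place in these counts is descriptive. The median of the 10 was -1.07, beside -0.05 for all genes.

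Npas4 had the lowest level in processes relative to somata, 15% of its soma CPM in control cultures (log2 -2.74 ± 0.23, adjusted p = 6.04e-06). Egr2 followed with 20% (-2.30 ± 0.54, adjusted p = 0.00544), from 3 reads in each processes library. It passed the read filter only through somata, where it lay higher, so this call is descriptive. The AP-1 genes Fos and Junb stood at 29.9% and 35.6% of their soma levels (-1.74 ± 0.18 and -1.49 ± 0.18), and Nr4a1 at 37.2% (-1.43 ± 0.24). These 5 genes passed whichever library was left out. Each pair of neighbours in this order differed by less than the sum of their standard errors.

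The other members lay nearer to their soma level. Fosb stood at 60.1% with overlapping libraries (-0.72 ± 0.46, adjusted p = 0.221), Egr4 at 75.7% (-0.39 ± 0.32, adjusted p = 0.337), Nr4a2 at 78.4% (-0.35 ± 0.20, adjusted p = 0.178) and Egr3 at 96.2% (-0.056 ± 0.23, adjusted p = 0.86). Egr1 stood at 77.3%, and with 445 and 490 reads in somata and 143 and 115 in processes its fall of -0.37 ± 0.13 just passed (adjusted p = 0.0417). Egr1 did not pass without somata control library 1 (-0.38, adjusted p = 0.113), somata control library 2 (-0.37, 0.124), somata PTX library 1 (-0.38, 0.0537), somata PTX library 2 (-0.37, 0.0571) or processes control library 2 (-0.26, 0.217), nor with DESeq2 (0.135).

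In PTX cultures 5 genes lay lower in processes, and again none higher, where 24% of all genes lay lower and 25.7% higher. Below a log2 of -1 were Npas4 (17.5% of its soma level, -2.51 ± 0.19), Fos (32.2%, -1.63 ± 0.15) and Junb (36%, -1.48 ± 0.16), 3 of 10 where 9.67% of all genes were. Nr4a1 stood at 54.6% (-0.86 ± 0.20, adjusted p = 0.00395). Egr1 stood at 75.8% (-0.40 ± 0.13, adjusted p = 0.0257), but did not pass without somata PTX library 1 (-0.32, adjusted p = 0.164), processes PTX library 1 (-0.37, 0.1) or processes PTX library 2 (-0.43, 0.071), nor with DESeq2 (0.0992). Egr2, at 66.3% (-0.58 ± 0.38), Fosb, at 66.8% (-0.59 ± 0.32), Egr3, at 81% (-0.30 ± 0.24), and Egr4, at 89.8% (-0.14 ± 0.27), did not pass. Fosb passed as lower with the replicate block (adjusted p = 0.0422).

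Nr4a2 was the only member whose level in PTX cultures was above that of somata, at 129%. Both processes PTX libraries (12.9 and 14.3 CPM) lay above both somata PTX libraries (9.64 and 11.3 CPM), and the log2 of 0.37 ± 0.18 did not pass (adjusted p = 0.0997) but did with the replicate block (0.0431). This direction depends on the scaling. It was -0.079 when libraries were scaled by their reads outside the mitochondrial genome and -1.45 when scaled by library size alone, settings that moved the median of all genes to -0.504 and -1.87. The median of the 10 members was -0.58 in PTX cultures, beside -0.05 for all genes. The astrocyte sum was 13300 to 14900 CPM in control processes against 4090 to 4480 CPM in control somata. It moved with the compartment mostly through Gfap (means of 10250 and 1685 CPM), with 4 of 8 markers higher and 2 lower. The part of astrocyte RNA in these differences was not tested.

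**Figure D3:**
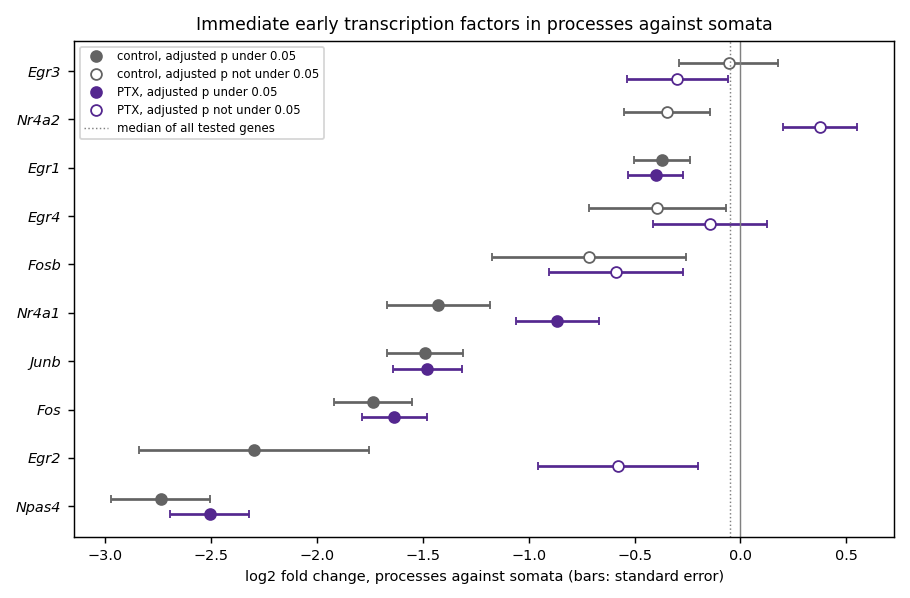
Log2 fold change of processes against somata for each of the 10 genes, in control (grey) and PTX cultures (purple). Bars show the standard error, filled points an adjusted p under 0.05 and the dotted line the median of all tested genes in control cultures (-0.05). Npas4 lies lowest in both, at -2.74 and -2.51, and Nr4a2 is the 1 gene to the right of 0 under PTX.

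The genes that work beside these factors responded unevenly. The lists below were chosen with earlier results of these data known, so their counts are descriptive. Of 9 tested AP-1 and ATF relatives, 1 rose in each compartment, where 2.09% (somata) and 1.64% (processes) of all genes did. None fell, and the medians were 0.13 in somata and -0.19 in processes. The riser in somata was Fosl2, a Fos-family gene (1.07 ± 0.19, adjusted p = 0.0125). In processes it was Maff, a small Maf factor (1.76 ± 0.31, adjusted p = 0.0131), whose change in somata was 1.21 (adjusted p = 0.0556). The Jun-family genes that pair with Fos and Fosb had -0.05 in somata and -0.19 in processes for Jun and 0.04 and -0.11 for Jund. With the replicate block 4 of the 9, among them Maff (adjusted p = 0.00112), rose in somata, where 7.21% of all genes did.

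Of 8 partners and corepressors of the EGR, NPAS4 and NR4A proteins none passed in either compartment by the quasi-likelihood test. Its unadjusted p was under 0.05 for 3 in somata and 4 in processes, without the share of all genes to compare. The likelihood ratio test passed 0 in somata and 1, lower, in processes, and DESeq2 passed 0 in both. The Npas4 partner gene Arnt2 had -0.0031 in somata and -0.09 in processes. Nab1 and Nab2, whose products repress Egr proteins, had 0.35 and -0.06 in somata and 0.46 and 0.22 in processes, and Nr4a3, the third receptor of its family, had 0.26 and 0.35. With the replicate block 1 rose and 1 fell in somata, where 7.21% of all genes rose and 6.79% fell. In processes 1 rose and 2 fell with the block, where 5.1% and 6.09% of all genes did. The riser was Nab1 in both (adjusted p = 0.04 and 0.018 with the block). Arnt fell in somata (log2 -0.39, adjusted p = 0.0402 with the block). Rxrb (-0.52, 0.0478) and Rxrg (-1.09, 0.0275) fell in processes.

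Of 19 tested upstream activators, such as CREB and SRF and their coactivators, none rose, and medians were -0.11 in somata and -0.03 in processes. None fell in somata by the quasi-likelihood test, and the likelihood ratio test and DESeq2 passed 0. The unadjusted p of the quasi-likelihood test was under 0.05 for 2, without the share of all genes to compare. The only one that fell in processes was Crtc1, which encodes a CREB coactivator that shuttles from synapse to nucleus (-0.81 ± 0.20, adjusted p = 0.0473). With the replicate block 2 fell in somata and 3 in processes, where 6.79% and 6.09% of all genes fell.

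Of 15 other transcription regulators induced by activity, 7 rose in somata and 5 in processes, where 2.09% and 1.64% of all genes did, and the medians were 0.63 and 0.61. None fell. With the replicate block 9 rose in somata and 6 in processes, where 7.21% and 5.1% of all genes did. The only 1 to fall with the block was Tsc22d3, in processes (-0.36, adjusted p = 0.0495). The largest in somata were Nfil3, a bZIP repressor (1.95 ± 0.19), Csrnp1 (1.70 ± 0.25), the clock gene Per1 (1.51 ± 0.10) and Crem, whose short forms repress CREB targets (1.38 ± 0.19). In processes Crem (1.71 ± 0.19), Nfil3 (1.56 ± 0.26), Per1 (1.499 ± 0.11) and Bhlhe40 (0.88 ± 0.19) rose, and Csrnp1 had 1.29 (adjusted p = 0.114, and 0.0317 with the block).

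Of 20 effector genes of neuronal activity, 15 rose in somata and 11 in processes, where 2.09% and 1.64% of all genes did, and none fell. With the list chosen while earlier results were known, the excess over these shares is no independent result. Their medians were 1.22 and 0.91. Inhba, which encodes an activin subunit, went from 0.85 and 0.51 CPM in control somata to 7.33 and 4.74 CPM under PTX, a log2 of 3.15 ± 0.35, and had 0.94 ± 0.46 (adjusted p = 0.347) in processes. The neurotrophin gene Bdnf rose by 2.05 ± 0.18 in somata and 1.89 ± 0.20 in processes. Nptx2, a secreted organiser of AMPA receptors, rose by 1.93 ± 0.10 and 1.46 ± 0.12, and the neuropeptide precursor gene Vgf by 1.92 ± 0.29 and 1.77 ± 0.35. In processes Dusp1, a MAP kinase phosphatase gene, rose by 2.10 ± 0.36 and the granin gene Scg2 by 1.67 ± 0.15. As with the immediate early genes, most of these effectors lay lower in control processes than in control somata (13 of 20 lower, 2 higher). Of all genes 21.9% lay lower and 25.8% higher there.

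**Figure D4:**
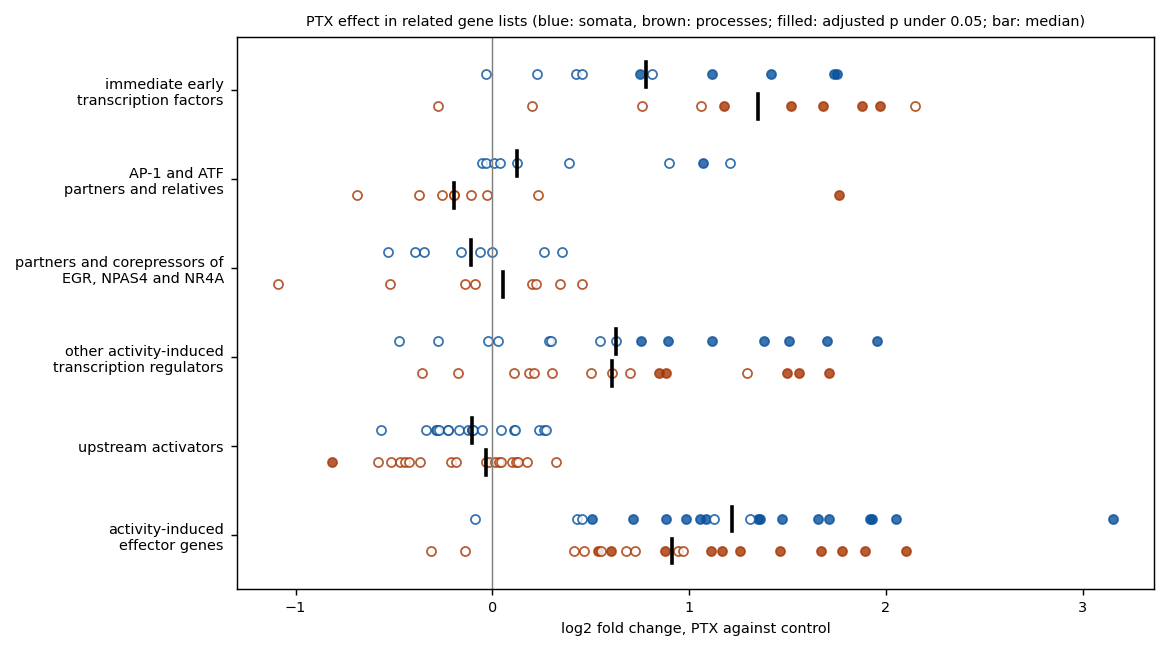
Log2 fold change of PTX against control for every tested gene of 6 lists, the 10 immediate early genes at the top, in somata (blue) and processes (brown). Filled points have an adjusted p under 0.05 and the black bar is the list's median, which is 0.78 in somata and 1.35 in processes for the immediate early genes, 1.22 and 0.91 for effector genes and near 0 for the upstream activators (-0.11 and -0.03).

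The 10 genes were compared with their own mean profile over the 8 libraries. Each gene's log2 CPM was standardised over the libraries and averaged into a mean profile, which was lowest in control processes (-1.04 and -1.21) and highest in PTX somata (0.905 and 1.05), with control somata (0.209 and -0.078) and PTX processes (-0.07 and 0.235) between them. Fos (Pearson r = 0.984), Nr4a1 (0.979) and Npas4 (0.965) followed that mean most closely. Nr4a2 (0.683) and Egr3 (0.0207) followed it least, and these values rose to 0.84 and 0.594 when the libraries were scaled by their reads outside the mitochondrial genome. Each gene is itself part of the mean, and the libraries share condition and depth, so these values are descriptive.

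The genes outside the 10 whose profile was most like the mean, among those of at least 5 CPM on average, were Mtmr12 (r = 0.985), Scg2 (0.983), Ppp2r1b (0.982), Dusp1 (0.981) and Cap2 (0.979), over 8 libraries. They differ widely in the size of the change. Scg2 went from 104 and 82.2 CPM in control somata to 322 and 286 CPM under PTX, and Dusp1 from 9.99 and 6.70 to 26.0 and 20.2 CPM. Mtmr12, with log2 changes of 0.39 and 0.44 in somata and processes, Ppp2r1b, with 0.39 and 0.45, and Cap2, with 0.18 and 0.17, passed the PTX test in neither compartment. When the libraries were scaled by their reads outside the mitochondrial genome, only 1 of the 5, Dusp1, remained among the nearest.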

How the data were processed

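RNA of 8 libraries, 2 per condition, was analysed at the level of gene symbols. The deposited values are counts: the authors trimmed reads with Trimmomatic, aligned them to Rnor 6.0 with Subread, counted them with featureCounts on an Ensembl annotation and summed them by symbol, without normalization. The submitters' processing notes name STAR as the aligner instead. Reads of near-identical gene copies or overlapping genes are of uncertain origin. The authors also deposited 2 tables of their own PTX comparisons (log2 fold change, log2 CPM, likelihood ratio, p and FDR), which were not used.

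A gene was tested where 2 libraries or more held over 20 reads of it, with edgeR 4.0.16 (R 4.3.3, limma 3.58.1), using TMM factors, 1 coefficient per condition over all 8 libraries, glmQLFit and glmQLFTest, Benjamini-Hochberg adjustment over all tested genes and a threshold of 0.05. The standard error was obtained by dividing the log2 fold change by the root of its F statistic. TMM-scaled CPM serve as levels, with a prior count of 2 on the log2 scale. Enrichment in a compartment also asked for an absolute log2 fold change above 1. Reads per library set the precision of every value, and counting intervals (95%) and the floor of 3 reads cover counting error only. The test was checked on simulated data.

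The members and gene lists were chosen with earlier results of these data known. All 10 members are named. From each related list, genes with an adjusted p under 0.05 for PTX are named, at most 4 per list and compartment by size of change, with the binding partners Jun, Jund, Arnt2, Nab1, Nab2 and Nr4a3. Likeness names the 5 genes with the highest Pearson r to the members' mean. The markers named were chosen after their values were seen, as were Nab1, Arnt, Rxrb, Rxrg and Tsc22d3, list members whose call changed with the block. Promoter sequences and motif shares come from RefSeq, assembly GRCr8. The groups and the replicate numbers come from the labels. The numbers pair the libraries: the difference between libraries 2 and 1 correlated across genes with r of 0.274 to 0.54 over all 6 pairs of conditions, though the labels do not say what the numbers mark. Libraries of 1 condition differed by more than sampling noise (chi-square per degree of freedom 9.11 to 21.1). As alternatives, DESeq2 1.42.0, the likelihood ratio test, other scalings and filters, the replicate block, only the 4 libraries compared, another prior count, and leaving out each library were run.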

Additional observations from a re-analysis of the deposited data

How the results depend on the processing

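Depth limits the processes results most, where Egr2 and Fosb rest on 3 to 35 reads per library. Asking for 10 reads or more in each library left out both, so they have no value there. Leaving out 1 library leaves its condition with 1 sample, which is assumed to vary like the other conditions. Whichever library was left out, fewer of all tested genes passed the PTX test in its compartment than with every library kept. A lower count of members in such a fit is therefore not particular to these genes.

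With the likelihood ratio test, no filter or the replicate block, 8 members rose in processes. With the block 1 member lay higher in PTX processes than in PTX somata, where 30% of all genes did. Beyond the calls given beside the results above the block changed no other call of a member. Scaled by library size only, 10 members lay lower in processes in control and 10 in PTX cultures, and the median of all genes moved to -1.86 and -1.87. In those fits 13462 and 13499 of all 14309 tested genes passed in either direction, so these counts are not particular to the members. Scaled by reads outside the mitochondrial genome, 8 lay lower in PTX cultures, with the median of all genes at -0.509 in control and -0.504 in PTX cultures. In that fit 9062 of all 14309 tested genes passed in either direction in PTX cultures. Under library size only the log2 values of Egr3 for PTX in somata (0.033), Junb for the interaction (-0.011) and Nr4a2 for processes against somata in PTX cultures (-1.45) changed sign, as did the last outside the mitochondrial genome (-0.079). The cause was not tested.

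Leaving out each library in turn, the members that rose numbered 2 to 5 in somata (2 without control library 2) and 1 to 5 in processes (1 without control library 1). The members lower in processes numbered 5 to 6 in control and 4 to 5 in PTX cultures. Signs changed for Egr3 in somata (-0.31 to 0.20), Egr3 between control compartments (-0.21 to 0.085), Egr4 between PTX compartments (-0.50 to 0.13) and, for the interaction, Egr1 (-0.14 to 0.10), Egr3 (-0.48 to 0.040), Egr4 (-0.11 to 0.72), Fos (-0.08 to 0.31), Fosb (-0.41 to 0.55), Junb (-0.18 to 0.18), Npas4 (-0.15 to 0.52) and the members' median (-0.019 to 0.34).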

Other observations

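Within the pairs of libraries of 1 number, the PTX change of the genes that rose kept its sign in both. This follows from both PTX libraries of these genes lying above both controls and adds no support. In somata the log2 ratio of PTX to control was 1.77 in pair 1 and 1.71 in pair 2 for Npas4, and 1.43 and 1.39 for Fos. In processes it was 1.78 and 2.03 for Npas4 and 1.29 and 1.74 for Fos. The largest spread between pairs was that of Egr4 in processes, 0.351 and 1.73, where the level was 2.68 CPM in control library 1 and 1.53 CPM in control library 2.

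Npas4 and Fosb differed between the numbered libraries in the same direction in every condition. How many of all genes did so was not counted, so it cannot be called particular to them. Npas4 was higher in library 2 in 4 of 4 conditions, by a log2 of 0.129 to 0.665. Fosb was lower in library 2 in 4 of 4, by 0.06 to 0.885. No test was made of this, and what the numbers mark is not given in the sources used here.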
